A study of Drosophila melanogaster with 9 samples.

Results

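The odorant (Or), gustatory (Gr) and ionotropic (Ir) receptor genes of Drosophila melanogaster were examined in microarray data from the central nervous system (CNS) of wandering larvae of the last instar. Genes were taken by symbol, where Or, Gr or Ir was followed by a number and a letter, on probe sets that name 1 gene. This gave 165 receptor genes, of which 56 were Or, 56 were Gr and 53 were Ir genes. They are set against 17105 rows, called all genes below. Of these rows 11982 are named genes, and the others are probe sets that name several genes or none. The brightest probe set stood for the 12 genes that have several. The other 20 probe sets of those genes had mean signals between 1.83 and 6.938.

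The study compared 3 genotypes, with 3 arrays each and 9 in all. Control larvae were repoGal4/+ and carried the pan-glial driver alone. The Htl[ACT] larvae (repoGal4>UAS-Htl[ACT]) expressed an activated form of the fibroblast growth factor receptor Heartless in all glia. The InR larvae (repoGal4>UAS-InR) expressed the insulin receptor in all glia. All 3 genotypes carry repoGal4, which drives expression in glia that express Repo. The study made these larvae because both receptors cause glia to overproliferate, and asked which genes rise or fall in CNS tissue enriched for glia. Each RNA sample came from the complete CNS of 10 to 15 larvae grown at 25 degrees.

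Odorant receptors are membrane channels that detect volatile compounds and work with the shared subunit Orco. Gustatory receptors detect sugars, bitter compounds, some pheromones and, as the Gr21a and Gr63a pair, carbon dioxide. Ionotropic receptors derive from ionotropic glutamate receptors, detect acids, amines, humidity and temperature, and rely on the co-receptors Ir8a, Ir25a and Ir76b. Most of these genes are known from sensory neurons of the antenna, maxillary palp, labellum and larval head organs, whose cell bodies lie outside the CNS. Some gustatory receptors, such as Gr43a and the Gr28 genes, are also known from central neurons.

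Signals are MAS5 values, which are linear, arbitrary and scaled to the same trimmed mean of 500.0 on every array. The median gene had a mean signal of 35.13, and array medians ran from 34.9 to 47.39. The labels were checked on htl and repo, which encode Heartless and the glial transcription factor Repo. The htl signal rose in Htl[ACT] tissue (log2 fold change 2.72, adjusted p = 1.42e-05), and repo rose in both tissues (1.32, adjusted p = 1.23e-05, and 0.75, adjusted p = 0.000308). The InR probe set did not rise in the arrays labelled InR (log2 fold change -0.23, adjusted p = 0.384). Whether its probes lie in the transgene's transcript is not given in the sources used here. Summed over 7 of 8 listed glial markers, the signal was 17575 to 19612 in control arrays, 63738 to 70588 in Htl[ACT] arrays and 42519 to 43554 in InR arrays. Over 6 of 8 neuron markers it was 13918 to 14552, 6173 to 8557 and 9416 to 10583. These are whole-tissue values, so fewer cells of a type and less RNA per cell cannot be told apart.

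The receptor families were dim in the larval CNS. Of the 165 genes, 163 had a mean signal below the median gene, and 85 were below the 25th percentile of all genes, a signal of 6.887. The median receptor gene had a mean signal of 6.597, at percentile 24.1 of all genes. The medians were 7.348 for Or, 6.965 for Gr and 5.386 for Ir genes, so the 3 families lay close together. Probe sets differ in affinity, and the order of signals between genes is therefore not an order of transcript number.

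The dim signals also varied more between arrays of the same genotype. In the control arrays the highest signal was a median of 3.44 times the lowest over the 165 receptor genes, against 1.54 times over all genes. This ratio was above 4 for 72 receptor genes, or 43.6%, and for 21.8% of all genes. The within-group SD of the log2 signal had a median of 1.08 in the receptor genes and 0.472 over all genes.

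**Figure D1:**
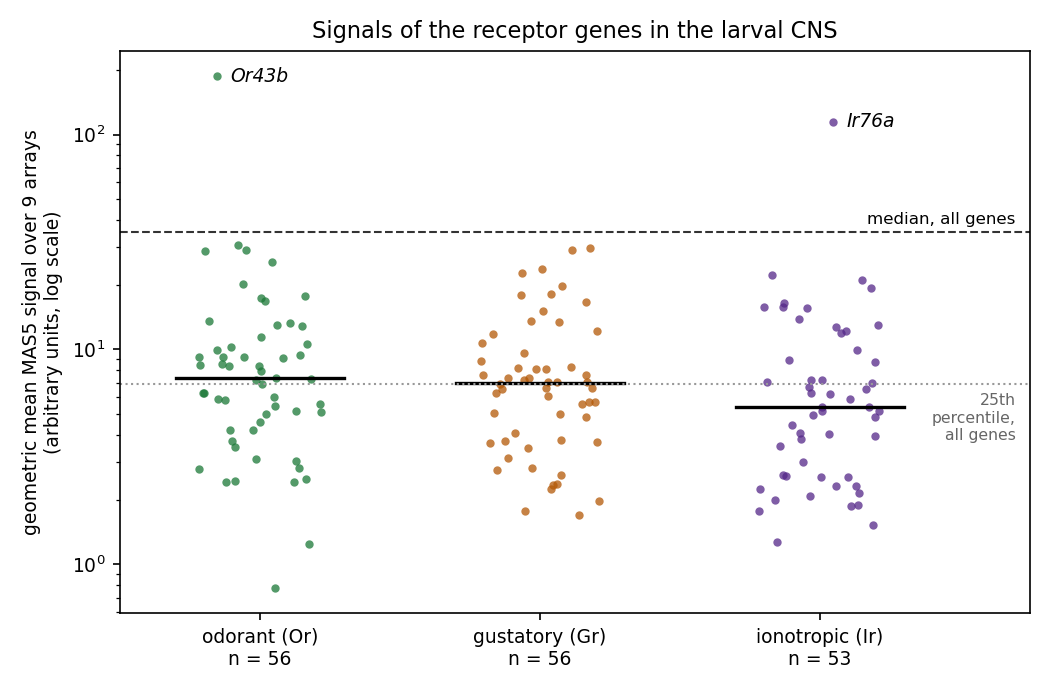
Geometric mean MAS5 signal over 9 arrays (log scale, arbitrary units) of each of the 165 receptor genes, by family, where the bars are family medians and the lines are the median (35.13) and the 25th percentile (6.887) of all genes. Or43b at 186.7 and Ir76a at 114.9 stand above the median line, and the other 163 genes lie below it.

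Only Or43b, an odorant receptor of the antenna, and Ir76a, an amine receptor of the antenna that works with Ir25a and Ir76b, were above the median gene in mean signal. Or43b had a mean signal of 186.7 (percentile 60.0) and was above the array median on all 9 arrays. Ir76a had a mean signal of 114.9 (percentile 57.0) and was above it on 6 arrays, the 3 control and the 3 InR arrays. Next below the line were Or43a, an antennal odorant receptor, at 30.58, and Gr61a, a sugar receptor, at 29.71. In all, 9 genes passed the array median on at least 1 array, and 156 passed it on none. On all 3 InR arrays 3 genes passed it, since Or49b joined Or43b and Ir76a. The dimmest gene was Or85a at 0.779.

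Receptors with well-known roles had low signals in every genotype. Of the 25 odorant receptors listed for larval olfactory neurons, 24 were found, and their mean signals ran from 1.25 to 20.18. Or42a and Or42b, which detect fruit esters in larvae, had means of 13.31 and 4.602. The co-receptors Ir25a, Ir8a and Ir76b had means of 15.74, 15.7 and 5.903, and Orco, outside the symbol rule, had 24.22. The 5 sugar receptors found ran from 8.17 to 29.71, the 5 bitter receptors from 2.37 to 29.03, and Gr21a and Gr63a had 6.617 and 3.775. Gr43a, the fructose receptor, had a mean of 13.47, and Gr28a and Gr28b had 9.596 and 10.72. The 5 thermo- and hygrosensory Ir genes (Ir21a, Ir25a, Ir40a, Ir68a and Ir93a) ran from 6.997 to 19.37. Of the genes on these lists, only Or67b, Or47a and Or94b, all on the larval odorant receptor list, were called in any comparison without a filter on low signals.

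Ir76a fell sharply in Htl[ACT] tissue and not detectably in InR tissue. Its signals were 256.1, 259.3 and 227.2 in control arrays, 21.96, 32.11 and 30.94 in Htl[ACT] arrays and 236.1, 204.0 and 219.5 in InR arrays. The Htl[ACT] arrays lay far below all others without overlap, and each was below its own array median, whereas the control and InR arrays overlapped. Against control the change was an 8.84-fold decrease in Htl[ACT] tissue (log2 fold change -3.14, SE 0.15, adjusted p = 5.44e-06, limma). Over the 18 alternatives that tested it, this log2 fold change ran from -3.24 to -2.58, so the size of the fold depends on the setting. In InR tissue the log2 fold change was -0.17 (SE 0.15, adjusted p = 0.398). Compared directly, Ir76a was lower in Htl[ACT] tissue than in InR tissue (log2 fold change -2.97, SE 0.15, adjusted p = 2.57e-05). Both comparisons with control share the control arrays.

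Some limits bear on the Ir76a value. Its probe set has the suffix that Affymetrix gives to probes shared between transcripts. The gene lies on chromosome arm 3L and overlaps CG14102, an uncharacterised gene. The CG14102 signals were 230.4, 186.9 and 176.7 in control arrays, 138.2, 137.3 and 137.4 in Htl[ACT] arrays and 170.7, 155.3 and 135.5 in InR arrays. The log2 fold change of CG14102 was -0.52 (SE 0.12, adjusted p = 0.00687) in Htl[ACT] tissue, under the 1.5-fold limit. The genes to either side are SREBP, a regulator of lipid synthesis genes, which rose in Htl[ACT] tissue (0.85, SE 0.08, adjusted p = 0.000109), and TORIP, which had a log2 fold change of -0.03 (adjusted p = 0.773).

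Marker lists fell in Htl[ACT] tissue to different degrees, and some also fell in InR tissue, where Ir76a was not called. Their part in the Ir76a change was not tested. All 6 neuron markers found were called lower in Htl[ACT] tissue (median log2 fold change -1.07). In InR tissue 1 of 6 was called lower, while all 6 had negative log2 fold changes (-0.82 to -0.24, median -0.61). Of all tested genes 19.2% were called lower in Htl[ACT] and 6.58% in InR tissue. Of the 5 neuroblast markers 4 were called lower in Htl[ACT] and 3 in InR tissue (medians -0.91 and -0.65). All 5 had negative log2 fold changes in both tissues (-1.02 to -0.38 and -0.83 to -0.50). Both photoreceptor markers found of 5 listed, gl and chp, fell in Htl[ACT] tissue (-1.48 and -0.74) and neither passed in InR tissue (0.27 and 0.44). Their summed signal was 141.1 to 194.0 in control arrays, 75.41 to 88.08 in Htl[ACT] arrays and 181.4 to 279.9 in InR arrays. Of the 5 imaginal disc markers 3 were called lower in Htl[ACT] tissue, with sums of 3262 to 4368, 1302 to 1935 and 2120 to 2686.

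The 5 tested genes whose log2 signals followed Ir76a most closely over the 9 arrays were rst, Mp, Drp1, mthl8 and a probe set with no gene name. Their Pearson correlations with Ir76a ran from 0.981 to 0.990, and the points share the same 9 arrays. The gene rst encodes an immunoglobulin-family adhesion protein, and its mean signal was 2189 ± 79.8 (SD, n = 3) in control tissue, 1140 ± 157 in Htl[ACT] tissue and 2147 ± 80.2 in InR tissue. Mp, a collagen gene, fell in Htl[ACT] tissue by 0.99 on the log2 scale. The receptor gene mthl8, of the methuselah-like family, fell by 1.73, and Drp1, a mitochondrial fission gene, had a log2 fold change of -0.21, under the 1.5-fold limit. None of these changes was as large as that of Ir76a.

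Or43b fell in Htl[ACT] tissue by a smaller amount. Its signals were 295.5, 219.5 and 227.2 in control arrays, 132.3, 148.7 and 159.5 in Htl[ACT] arrays and 194.3, 178.4 and 171.8 in InR arrays. The 3 genotypes did not overlap, with control highest and Htl[ACT] lowest. The decrease in Htl[ACT] tissue was 1.67-fold (log2 fold change -0.74, SE 0.13, adjusted p = 0.00159). It was under 1.5-fold when arrays were quantile normalised (-0.54, adjusted p = 0.00806) or centred on their medians (-0.57, adjusted p = 0.0153). In InR tissue the log2 fold change was -0.44 (SE 0.13, adjusted p = 0.0308), which is under the 1.5-fold limit and so was not called. The direct difference between Htl[ACT] and InR tissue did not pass the test (-0.31, SE 0.13, adjusted p = 0.116).

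Or43b lies on arm 2R and overlaps Cul1, which encodes a ubiquitin ligase scaffold. Cul1 signals were 3515, 3639 and 3358 in control arrays, 2647, 3018 and 2916 in Htl[ACT] arrays and 3753, 3156 and 3521 in InR arrays. Its log2 fold change was -0.29 (SE 0.09, adjusted p = 0.0211) in Htl[ACT] and -0.01 (SE 0.09, adjusted p = 0.915) in InR tissue. Both were smaller in size than those of Or43b. The genes to either side had other changes, with a rise of CG12159 in Htl[ACT] tissue (1.08, SE 0.09, adjusted p = 5.92e-05) and a log2 fold change of -0.25 (adjusted p = 0.124) for Kdm4A, a histone demethylase gene.

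**Figure D2:**
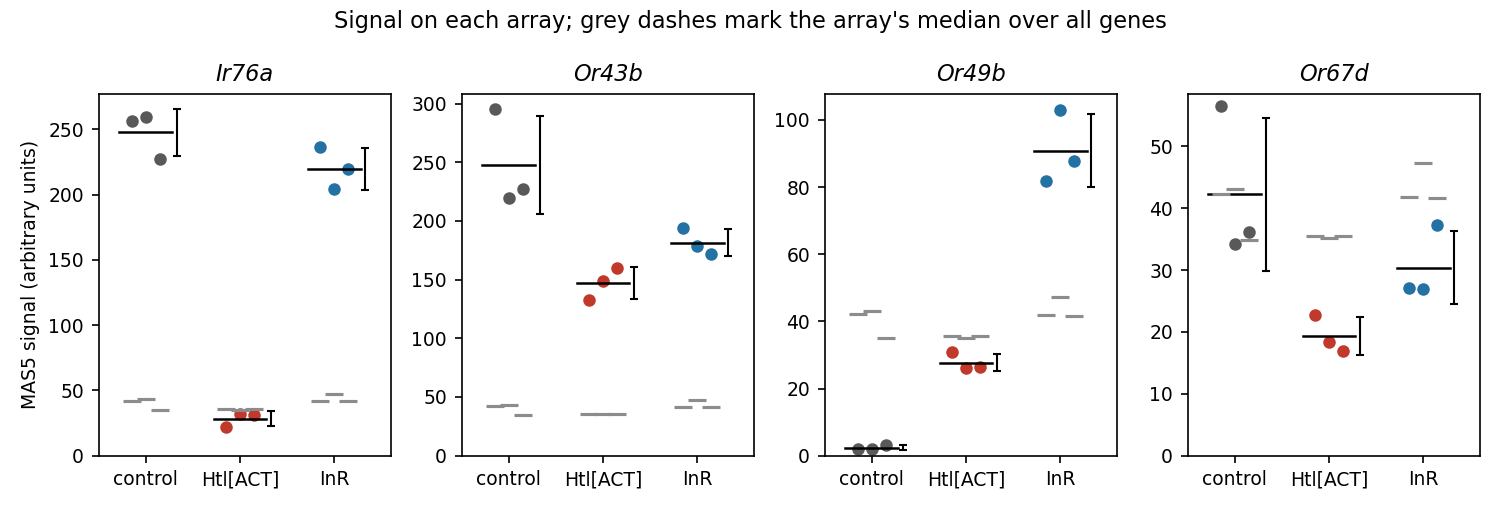
MAS5 signal (linear, arbitrary units) of Ir76a, Or43b, Or49b and Or67d on each of the 9 arrays, with the group mean (line) and SD (bar, n = 3) and the array's median over all genes (grey dashes). Ir76a falls to 21.96 to 32.11 in Htl[ACT] arrays, and Or49b rises from 1.838 to 3.173 in control to 81.67 to 102.8 in InR arrays.

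Genes brighter than the median were tested, 8552 in all, and Or43b and Ir76a were the receptor genes among them. A gene was called at an adjusted p of at most 0.05 and a change of at least 1.5-fold. In Htl[ACT] tissue against control both were lower and 0 were higher, where 13.0% of the tested genes were called higher and 19.2% lower. In InR tissue against control 0 of 2 were called in either direction by limma, with 1 of 2 at an unadjusted p under 0.05, where 9.24% of the tested genes were called higher and 6.58% lower. In Htl[ACT] against InR tissue 1 of 2, Ir76a, was lower and 0 were higher, where 5.43% were called higher and 6.45% lower. A count of 2 genes allows no reading against these shares.

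The direction of the background moved with the scaling of the arrays. Of the calls in Htl[ACT] tissue 40.4% were increases, against 59.6% after median centring. In InR tissue the share was 58.4%, against 38.1% after median centring. In the direct comparison it was 45.7%, against 81.9% after median centring and 60.0% after quantile normalisation. Median centring moved the median of the log2 fold changes over tested genes from -0.15 to 0.02 in Htl[ACT] tissue and from -0.09 to -0.22 in InR tissue. The Ir76a change in Htl[ACT] tissue, -3.14, was far larger than the shift there, and its log2 fold change of -0.17 in InR tissue was of about the size of the shift there.

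All 165 receptor genes were then tested in a fit to all 17105 genes with no filter on low signals. In Htl[ACT] tissue against control 5 receptor genes were higher and 5 lower, or 3.03% each, where 6.51% of all genes were called higher and 8.92% lower. In InR tissue against control 2 were higher and 1 lower, or 1.21% and 0.606%, where the shares of all genes were 4.22% and 2.03%. In Htl[ACT] against InR tissue 3 were higher and 3 lower, or 1.82% each, where the shares were 2.31% and 2.14%. The receptor genes were therefore called no more often than genes in general in these comparisons, and their wide spread between arrays limits what could be called. The median log2 fold change of the 165 genes was -0.10 in Htl[ACT] and 0.12 in InR tissue, against -0.12 and -0.03 over all genes. By family, 3 Or, 1 Gr and 1 Ir genes rose in Htl[ACT] tissue and the same numbers fell, and in InR tissue 1 Or and 1 Gr gene rose and 1 Or gene fell.

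**Figure D3:**
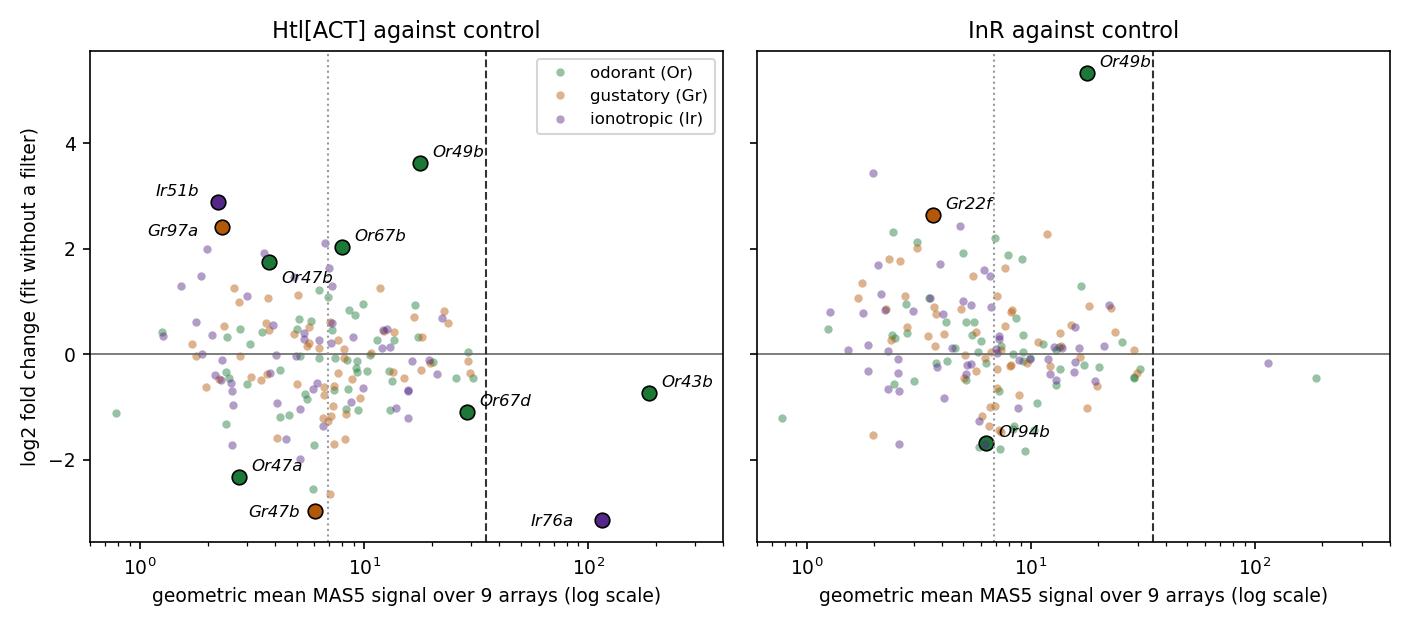
Log2 fold change of the 165 receptor genes (fit without a filter) against geometric mean MAS5 signal over 9 arrays (log scale), in Htl[ACT] (left) and InR tissue (right) against control, coloured by family, with called genes outlined and named. The dashed and dotted lines are the median (35.13) and 25th percentile (6.887) of all genes, and Or49b has the largest increase in both panels, 3.62 and 5.33.

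Or49b, an odorant receptor of the antenna, rose in both tissues and had the largest increase of the 165 genes in each. Its signals were 1.958, 1.838 and 3.173 in control arrays, 30.78, 25.99 and 26.46 in Htl[ACT] arrays and 81.67, 102.8 and 87.82 in InR arrays. The 3 genotypes did not overlap, the control arrays were near the bottom of the scale, and only the InR arrays exceeded their array medians. In the fit without a filter the log2 fold change was 3.62 (SE 0.22, adjusted p = 0.000288) in Htl[ACT] and 5.33 (SE 0.22, adjusted p = 0.000278) in InR tissue. The control signals were below the 25th percentile of their arrays, so the size of these changes is not well measured. The control group was also set at that percentile, a floor that was chosen after the values were seen and is not a bound. Or49b was then 3.48-fold higher in Htl[ACT] and 11.4-fold higher in InR tissue. With 16 added to every signal the log2 fold changes were 1.25 and 2.54, and both were still called.

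Or49b was lower in Htl[ACT] tissue than in InR tissue (log2 fold change -1.71, SE 0.22, adjusted p = 0.0086). This difference did not pass after quantile normalisation (-1.43, adjusted p = 0.0752) or without the control 2 and InR 2 arrays (-1.61, adjusted p = 0.0737), while both increases over control were called under every setting tried.

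The gene next to Or49b on arm 2R is Cyp9h1, which encodes a cytochrome P450. The Cyp9h1 signals were 88.32, 75.38 and 139.6 in control arrays, 392.2, 235.2 and 397.7 in Htl[ACT] arrays and 683.3, 1090 and 1102 in InR arrays. It rose in the same order of genotypes, by a log2 fold change of 1.77 (SE 0.31, adjusted p = 0.00165) in Htl[ACT] and 3.26 (SE 0.31, adjusted p = 0.000216) in InR tissue. On the other side CG17575 had mean signals of 6.961, 5.149 and 3.8 in control, Htl[ACT] and InR tissue, and was not called in either. Whether the probes of Or49b and Cyp9h1 report 1 transcript or 2 was not tested.

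Markers of other tissues were summed by array as well. Not all of them followed the order of genotypes seen for Or49b, and their part in its change was not tested. Over 4 of 5 ring gland markers found, the summed signal was 181.1 to 319.2 in control arrays, 217.8 to 848.4 in Htl[ACT] arrays and 945.1 to 2260 in InR arrays. All 4 rose in InR tissue (median log2 fold change 2.76). Over 3 of 6 fat body markers the sums were 585.3 to 6944, 609.2 to 1011 and 842.0 to 18738, and were high on the control 2, InR 2 and InR 3 arrays only. On the control 2 array the Or49b signal was 1.838, and on the InR 1 array it was 81.67. Of the trachea markers 3 of 4 were found, with sums of 343.7 to 544.7, 311.2 to 398.0 and 614.0 to 793.0. Hemocyte markers, 5 of 5 found, gave 456.9 to 524.2, 181.7 to 437.3 and 658.6 to 1186. The 2 of 5 muscle markers found gave 30.49 to 46.34, 11.26 to 45.06 and 31.23 to 54.2. No marker found was listed at 0.

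**Figure D4:**
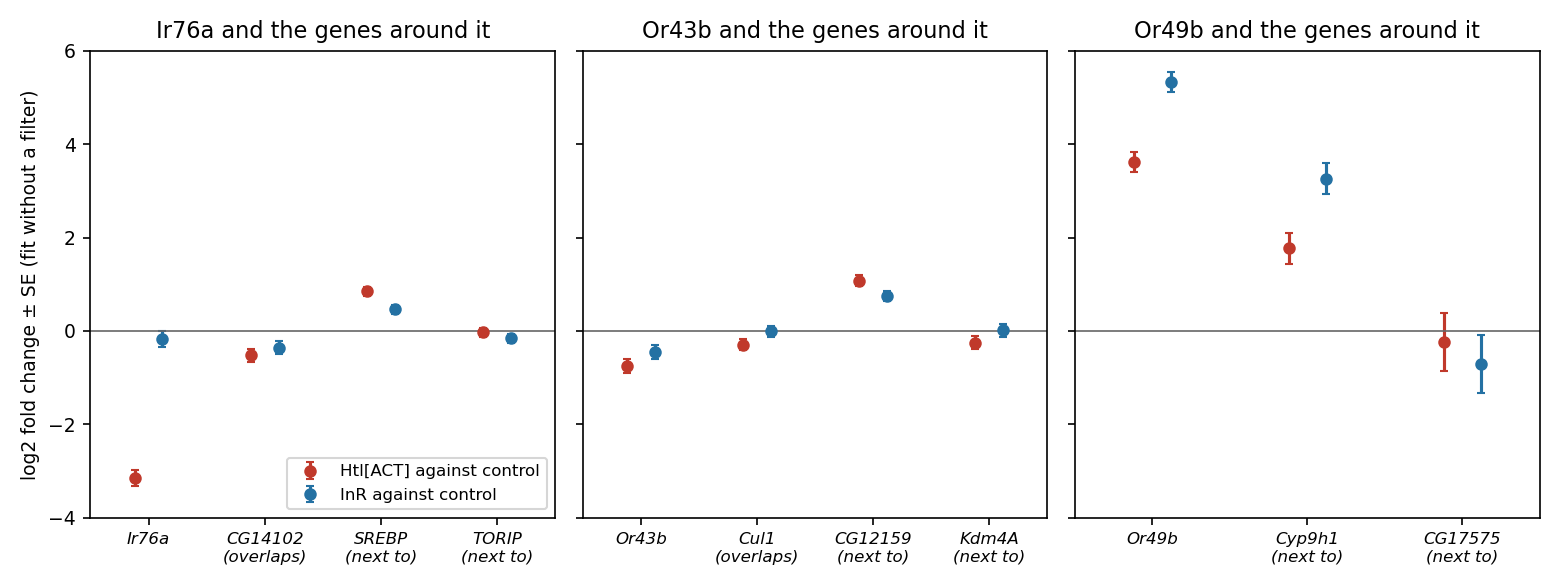
Log2 fold change ± SE (fit without a filter, 3 arrays a group) against control in Htl[ACT] and InR tissue for Ir76a, Or43b and Or49b and the genes that overlap or adjoin them. Cyp9h1 rises beside Or49b (1.77 and 3.26), and no gene beside Ir76a has a decrease like its -3.14.

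Or67d, the receptor for the male pheromone cis-vaccenyl acetate, was the brightest of the other called genes. Its signals were 56.55, 34.18 and 36.09 in control arrays, 22.76, 18.4 and 16.93 in Htl[ACT] arrays and 27.07, 26.89 and 37.23 in InR arrays. The Htl[ACT] arrays were below all others, and the control and InR arrays overlapped. The decrease in Htl[ACT] tissue was 2.14-fold (log2 fold change -1.10, SE 0.24, adjusted p = 0.0178), and it did not pass after median centring (-0.93, adjusted p = 0.0647) or without the control 2 and InR 2 arrays (-1.23, adjusted p = 0.062). It also missed the threshold without Htl[ACT] replicate 2 (-1.07, adjusted p = 0.0543) or replicate 3 (-1.01, adjusted p = 0.0595).

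The other 9 called genes had signals of at most 24.46 on every array. In Htl[ACT] tissue Gr97a rose from 0.7307 to 1.095 in control to 3.062 to 9.718 (log2 fold change 2.41, SE 0.47, adjusted p = 0.0111), and in InR tissue, where it had 1.81 (adjusted p = 0.0596), it was called with the replicate number as a block, after quantile normalisation, with the 6 arrays of the comparison fitted alone and without Htl[ACT] replicate 1. Ir51b rose from 0.5041 to 1.501 to 2.771 to 11.78 (2.88, SE 0.70, adjusted p = 0.0259). Or47b, a receptor for fatty acid-derived pheromones, rose from 2.222 to 2.849 to 5.288 to 12.48 (1.75, SE 0.39, adjusted p = 0.0189). For these genes the Htl[ACT] and control arrays did not overlap, but most values lay around or below the 25th percentile of all genes.

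Or67b, a larval and adult odorant receptor, had control signals of 1.389 to 7.523 and Htl[ACT] signals of 10.71 to 16.87 (log2 fold change 2.03, adjusted p = 0.042). In the same tissue Gr47b fell from 11.36 to 22.24 to 1.153 to 3.316 (-2.97, SE 0.82, adjusted p = 0.0421), and Or47a, a larval and adult odorant receptor, fell from 2.347 to 9.059 to 0.5626 to 1.344 (-2.33, SE 0.59, adjusted p = 0.0313). These were the least certain calls of the comparison by adjusted p.

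In InR tissue Gr22f rose from 0.6435 to 2.961 in control to 6.957 to 13.93 (log2 fold change 2.64, adjusted p = 0.043). Or94b, an odorant receptor of larval neurons, fell from 7.446 to 11.88 to 2.221 to 4.377 (-1.68, adjusted p = 0.027), and its Htl[ACT] signals of 6.505 to 10.89 overlapped those of control. With all arrays fitted, Ir7d was called only between the 2 transgenic genotypes, at 8.508 to 12.12 in Htl[ACT] arrays and 1.752 to 4.97 in InR arrays (1.96, adjusted p = 0.0439). In InR against control Ir7d had -1.69 (adjusted p = 0.0525), and it was called lower there when InR replicate 3 was left out.

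These dim calls rested on the scale. With 16 added to every signal, none of the 9 was called in any comparison, while Or49b, Ir76a, Or43b and Or67d were, and Or88a (lower in Htl[ACT] tissue) and Gr22e (higher in InR tissue), named after their values were seen, were called in addition. Without the control 2 and InR 2 arrays none of the 9 was called either. Some of the 9 overlap other genes, namely Ir51b (the gene row), Or67b (CG3335 and Cyp40), Or94b (Nha2) and Or47a (Cpr47Ea). The part of these genes in the calls was not tested. Of the 9, Gr97a and Or47b were called in Htl[ACT] tissue when only the 6 arrays of the comparison were fitted, and Gr47b fell in that fit too.

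**Figure D5:**
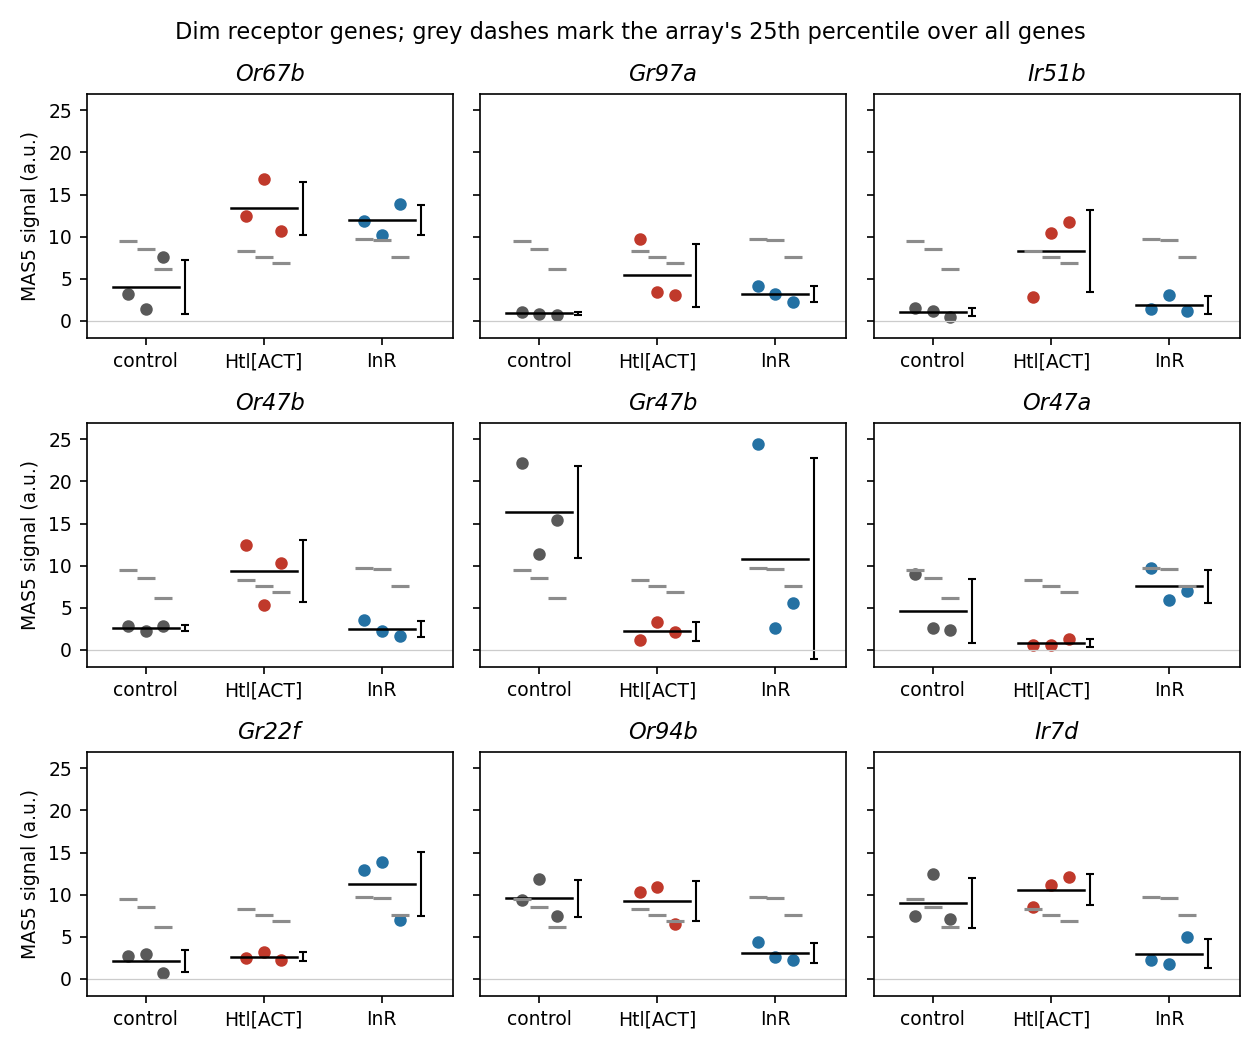
MAS5 signal (linear, arbitrary units) on each array of the 9 dim called receptor genes, with group mean (line) and SD (bar, n = 3). The grey dashes are the 25th percentile of each array over all genes, and many of the signals, which are at most 24.46, lie below it.

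Other genes of chemosensation were taken from a list of 66 found on the array, namely Orco, the Snmp genes, odorant-binding proteins, CheA and CheB genes and ppk channels. Of these, 61 were dimmer than the median gene, and 5 were tested. Obp44a, an odorant-binding protein gene known from glia, had a mean signal of 30667 and did not pass in either tissue (log2 fold changes -0.02 and 0.06). Obp18a rose in both tissues, from 80.57 ± 15.3 (SD, n = 3) in control to 158.3 ± 28.5 in Htl[ACT] (0.98, adjusted p = 0.00925) and 312.2 ± 98.4 in InR tissue (1.93, adjusted p = 0.000924). Obp99a had a log2 fold change of 0.53 (adjusted p = 0.00153) in Htl[ACT] tissue, under the 1.5-fold limit, and -0.07 in InR tissue. Obp99b and ppk29 were not called. In the direct comparison Obp99a was higher in Htl[ACT] tissue than in InR tissue (0.60, adjusted p = 0.00294) and Obp18a was lower (-0.95, adjusted p = 0.0246).

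Of 5 transcription factors known from chemosensory neurons, 3 were brighter than the median gene and were tested. The POU factor acj6, which selects odorant receptors in adult olfactory neurons and is also known from central neurons, had signals of 161.4 to 166.3 in control arrays, 64.45 to 84.48 in Htl[ACT] arrays and 85.76 to 109.8 in InR arrays. It fell in both tissues (-1.12, adjusted p = 0.000218, and -0.79, adjusted p = 0.00262), and neither overlapped control. The proneural gene ato fell in both (-0.98, adjusted p = 0.00022, and -0.66, adjusted p = 0.00343). A further POU factor, pdm3, fell in Htl[ACT] tissue (-0.71, adjusted p = 0.000929) and had -0.28 (adjusted p = 0.08) in InR tissue. The genes amos and lz were below the median gene, with means of 4.804 and 23.14.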

How the data were processed

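RNA was prepared in triplicate for each genotype from pooled larvae, and nothing in the labels says how far the preparations were independent, so p-values measure the spread between these samples. Biotin-labelled cRNA from 500 ng of total RNA was hybridised to Affymetrix Drosophila Genome 2.0 arrays. The authors used MAS5, run in Expression Console from Affymetrix, to normalise the arrays. The deposited values are linear signal intensities for 18952 probe sets, with a 2% trimmed mean of 500.0 on each array. MAS5 subtracts mismatch probes, which spreads low signals widely on a log scale, and detection calls were not used here.

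Control probe sets (183) were dropped, and 1 probe set stood for each named gene, the brightest by mean log2 signal. This left 17105 rows, of which 11982 were named genes and the others were probe sets naming several genes or none. A table of GEO's platform annotation named 1 gene for 13646 probe sets, several for 402 and none for 4721. All 165 receptor symbols were found in the RefSeq gene table of the Release 6 assembly, which was used for names, overlaps and neighbours only. Probe sets naming several genes stayed in the fits and in the shares of all genes as rows of their own. The 5 of them that matched the symbol rule were not taken as receptor genes. No sequence of the receptors was used.

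Log2 signals were fitted by genotype with limma 3.58.1 (lmFit, contrasts.fit and eBayes in R 4.3.3) over all 9 arrays, with 6 residual degrees of freedom. Genes brighter than the median (8552, mean signal at least 35.2) were tested, with Benjamini-Hochberg adjustment over all tested genes, and a call needed an adjusted p of at most 0.05 and a change of at least 1.5-fold. A fit without the filter tested all genes. The fit was tested on simulated data with 200 changed genes, in equal shares of larger and smaller changes. With the filter it recovered a mean of 94.95 of the larger and 78.75 of the smaller changes. Without the filter, the fit that tested most receptor genes, the means were 47.75 and 33.1. The changed genes were drawn from all genes in the fit and not from the receptor genes. The median within-group SD of the log2 signal was 0.472 over all genes and 1.08 in the receptor genes. Recovery among receptor genes was therefore not measured. The 3 arrays a genotype limit the precision.

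Receptor genes were named by a rule that took those above or next to the median gene, those called in any comparison, the 3 brightest of each family and those with textbook roles (40 genes). The receptor genes and gene lists were chosen with earlier results of these data known. Alternatives were quantile normalisation, median centring, 16 added to signals, the brightest 5701 genes, the 6 arrays of a comparison, limma's trend and robust options, the mean of all probe sets, each array left out, the fit without a filter under each of these, and the replicate number as a block. Deviations from group means of same-numbered arrays correlated at 0.499, 0.371 and 0.23 between InR and control. They correlated at -0.0402, -0.0557 and 0.198 between Htl[ACT] and control and at -0.0371, -0.167 and 0.378 between Htl[ACT] and InR. The fits by genotype were unpaired, and the replicate number entered only as the block of the alternative fit. What same-numbered InR and control arrays share was therefore not modelled in the main values.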

Additional observations from a re-analysis of the deposited data

Results flagged for a closer look

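A difference between the effects of the 2 transgenes was seen for 6 receptor genes, each in the direct limma test of Htl[ACT] against InR tissue. Their signals are given in the report, except the InR signals of Or47a and Or47b. Ir76a differed by a log2 fold change of -2.97 (adjusted p = 2.57e-05), with all 3 Htl[ACT] arrays below all 3 InR arrays, and it passed under every alternative that tested it. Or49b differed by -1.71 (adjusted p = 0.0086, fit without a filter), with all 3 Htl[ACT] arrays lower. Or47a differed by -3.29 (adjusted p = 0.0267), Or94b by 1.63 (adjusted p = 0.0387), Or47b by 1.92 (adjusted p = 0.039) and Ir7d by 1.96 (adjusted p = 0.0439), all on signals of at most 12.48 on every array. Of the 6, only Ir76a was called when the control 2 and InR 2 arrays were left out, and Or49b (-1.61, adjusted p = 0.0737 in that setting) was also not called after quantile normalisation (-1.43, adjusted p = 0.0752). Groups of 3 arrays are too small for a test of outlying samples.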

How the results depend on the processing

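None of the log2 fold changes of receptor genes that were followed through the alternatives changed sign. The share of increases among the calls of all genes did move with the scaling, as given above. Among genes brighter than the median, the receptor counts were 0 higher and 2 lower (Htl[ACT] against control), 0 and 0 (InR against control) and 0 and 1 (Htl[ACT] against InR), and they were the same with each array left out in turn. Without the filter they were 5 and 5, 2 and 1, and 3 and 3. Among the brightest 5701 genes no receptor gene was left to test, so the counts lower were 0 in Htl[ACT] against control and 0 against InR. Quantile normalisation and median centring each left 1 lower in Htl[ACT] tissue. In mean signal 2 receptor genes passed the median gene, and 1 passed it on all 9 arrays.

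In the fit without a filter, 16 added to signals left 1 higher in Htl[ACT] tissue, 0 lower in InR tissue and 0 higher in Htl[ACT] against InR. Limma's trend and robust options gave 3, 0 and 0, and the 6 arrays of a comparison gave 3, 0 and 0, with 5 lower in Htl[ACT] against InR. Median centring left 1 lower in Htl[ACT] tissue and 1 higher in InR tissue. With the replicate block, 3 were lower in Htl[ACT] tissue and 1 was higher in Htl[ACT] against InR. There Or67b (adjusted p = 0.072), Gr47b (0.0812) and Or47a (0.0539) were no longer called in Htl[ACT] tissue, nor Ir7d (0.0972), Or47b (0.0546) and Or47a (0.0652) in the direct comparison. With it Gr97a was called higher in InR tissue. The block changed no call of Ir76a, Or43b, Or49b or Or67d. Without the control 2 and InR 2 arrays, a setting chosen after seeing the data, 1 was higher and 2 lower in Htl[ACT] tissue. The counts were 1 and 0 in InR tissue, and 0 and 1 in the direct comparison. The 2 lower genes were Ir76a and Gr8a, which was named after its values were seen. Or43b was not called in this setting without the filter, and was called in it with the filter.

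With each array left out in turn, the counts ran from 2 to 4 higher and 3 to 5 lower in Htl[ACT] tissue, 1 to 3 and 0 to 1 in InR tissue, and 0 to 2 and 2 to 5 in the direct comparison. Leaving out any array other than InR 1 moved at least 1 of these counts by over 1.5 times, and the cause was not tested. Low signal limits these values, since changes of genes near background are poorly measured.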
